A study of Mus musculus with 25 samples.

Results

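The libraries described here were those of the tumour cells and of the stromal cells sorted from the peritoneal tumours of 4 mice, 8 of the 25 samples of the series. They were chosen by their sample titles, which give the kind of cell, the site and the number of the mouse. Both libraries of a mouse came from 1 dissociated tumour, so the comparison was made within mice over all 24984 genes of the count table. The tumour cells descended from BMEL cells, bipotential progenitors taken as clones from the embryonic liver of a female C57BL/6xC3H mouse, into which a human H-Ras G12V oncogene and the fluorescent protein Venus had been introduced on the same vector. Cells had been injected into the liver of immunocompromised mice, for which the study describes athymic nude Foxn1nu animals, and peritoneal tumours grew beside the liver tumours, probably from cells that leaked out at injection. The labels give neither the age and strain of these 4 hosts nor whether RasLOW or RasHIGH cells had been injected. Tumours were dissociated and sorted on green fluorescence only. The stroma is therefore defined by the absence of the fluorescent protein, not by a marker of any host cell type.

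A solid tumour holds host cells beside the transformed ones: macrophages and other leukocytes, fibroblasts that deposit collagen, and vessels. Transformed epithelial cells send growth factors and chemokines to these cells and receive others from them, and a comparison of the 2 fractions shows which of them carries the mRNA of each ligand and each receptor. Hepatic progenitors are recognised by a network of transcription factors, among them Hnf4a, Foxa2 and Sox9, and oncogenic Ras drives the Erk kinases, which induce their own inhibitors of the Dusp and Sprouty families. Nude mice lack a thymus and so most T cells, but have macrophages, neutrophils, NK cells and B cells.

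Between 26496363 and 51241336 reads were counted in each tumour cell library and between 23129017 and 32723797 in each stromal library. Levels are given as CPM, read counts scaled to a common library size after TMM normalisation, 3 counts equal 0.0570 to 0.133 CPM, and 4 values in a row are those of mice 1 to 4. Pearson correlations of log2(CPM + 0.5) were 0.977 to 0.994 between tumour cell libraries, 0.979 to 0.988 between stromal libraries and 0.678 to 0.790 across the 2 kinds. The tumour cell library of mouse 1 stood apart. The summed CPM of macrophage, fibroblast and endothelial markers in the tumour cells was 4.02%, 1.33%, 1.09% and 1.59% of that in the stroma of the same mouse, and with fibroblast markers alone 2.89%, 0.43%, 0.43% and 0.40%. The stromal library of mouse 1 differed too, by its neutrophil granule genes. In the other direction, over the 1688 genes with at least 10 CPM that were higher in tumour cells, the stroma held 7.20%, 5.67%, 6.91% and 8.34% of the tumour cell level at the 5th percentile, and whether that RNA came from tumour cells in the stromal gate was not tested. Both libraries of a mouse had been sequenced on the same lane.

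The 2 fractions differed across much of the transcriptome, with liver and epithelial genes on the tumour cell side and genes of leukocytes, fibroblasts and vessels on the stromal side. Of 14584 genes that passed the filter on low counts, 6358 (43.6%) were called, with an adjusted p-value under 0.05 in edgeR's quasi-likelihood F-test and an absolute log2 fold change above 1. Of these, 2369 (16.2% of the genes tested) were higher in tumour cells and 3989 (27.4%) higher in stroma. The 4 tumour cell values and the 4 stromal values did not overlap for 10620 genes (72.8%). These shares are the background for the counts of list members given below. The sizes of the changes were unequal: above 5 on the log2 scale there were 10 genes higher in tumour cells and 1806 higher in stroma, while the median over all genes tested was 0.07. Leaving out mouse 1 gave 2117 genes higher in tumour cells and 4197 higher in stroma.

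**Figure D1:**
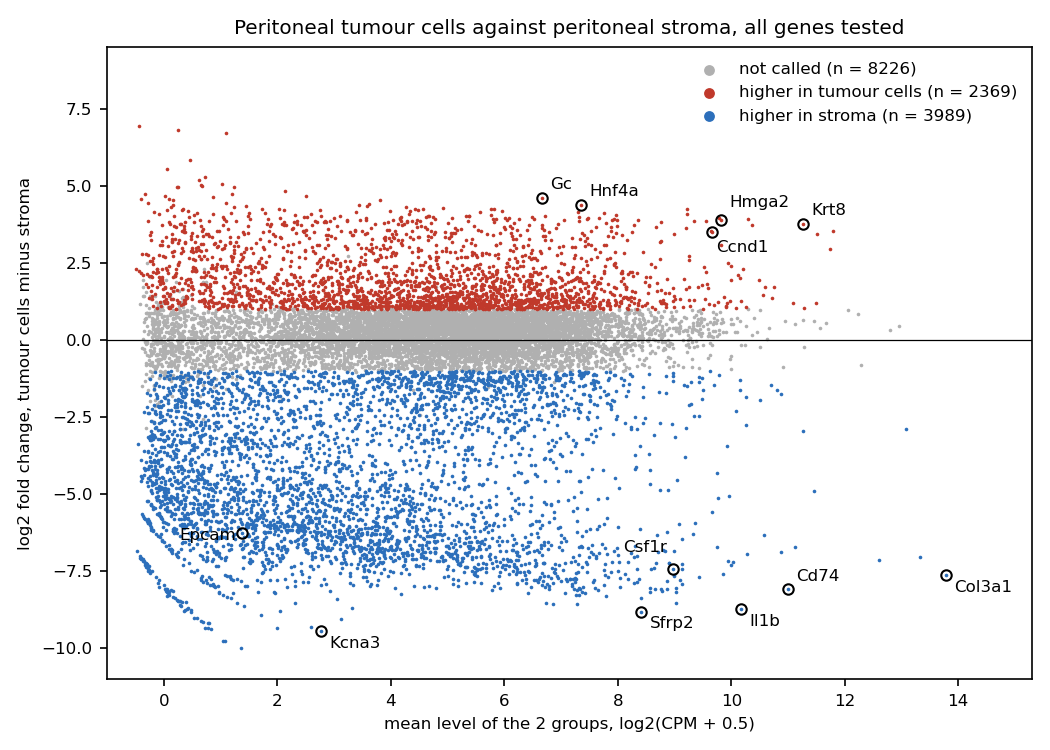
Each of the 14584 genes tested is a point, with its mean level over the 2 groups on the x axis, as log2(CPM + 0.5), and its log2 fold change on the y axis, above 0 when higher in tumour cells. Red and blue points were called, and the blue points reach -9.99 while 10 red points pass 5.

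The largest changes in favour of the tumour cells, among called genes with at least 10 CPM and no overlap, included several liver genes. Gc encodes the vitamin D binding protein that the liver secretes, and stood at 133, 187, 277 and 174 CPM in tumour cells against 7.46, 3.32, 17.6 and 6.88 CPM in stroma, a log2 fold change of 4.61 ± 0.35 (SE, adjusted p = 2.39e-04). Hnf4a, the nuclear receptor at the centre of the hepatic programme, stood at 288, 272, 313 and 368 CPM against 16.8, 8.27, 17.1 and 19.3 CPM, 4.39 ± 0.20 (SE, adjusted p = 6.80e-05). Foxa2, a pioneer factor of endoderm, followed with 109.8, 75.8, 105 and 133 CPM against 6.54, 2.39, 6.98 and 7.33 CPM, 4.26 ± 0.20 (SE, adjusted p = 7.45e-05). The absence of overlap in these 3 genes was a condition of their selection. The others of the leading 10 were Cadps (4.54), which primes secretory vesicles, the aldo-keto reductase Akr1c19 (4.40), Glod5 (4.37), the zinc finger factor Sall1 (4.35), the water channel Aqp8 (4.30), Dnajc22 (4.26) and the neurofilament gene Nefl (4.25), with adjusted p-values of 0.00331 for Aqp8 and below that for the rest. Aqp8 varied between mice, at 15.2, 71.4, 43.1 and 12.6 CPM in tumour cells.

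At the other end stood genes of leukocytes and connective tissue. Il1b, the inflammatory cytokine of activated myeloid cells, was at 1858, 2302, 2192 and 2781 CPM in stroma and 36.7, 2.36, 4.03 and 3.35 CPM in tumour cells, -8.72 ± 1.03 (SE, adjusted p = 8.34e-04). Sfrp2, a secreted Wnt modulator of fibroblasts, was at 689.8, 953, 476 and 585 against 15.9, 0.536, 0.703 and 0.728 CPM, -8.82 ± 1.18 (SE, adjusted p = 0.00129). H2-Eb1, a chain of MHC class II, was at 1026, 1010.3, 944 and 1179.8 against 25.4, 1.80, 1.43 and 1.20 CPM, -8.54 ± 1.07 (SE, adjusted p = 0.00103). For each of these genes the tumour cells of mouse 1 held the highest of the 4 tumour cell values. Hopx (-8.71), Cytip (-8.58), the decoy receptor Il1r2 (-8.55), Ptx3 (-8.53) and Stra6l (-9.06) were among the same 10. Kcna3, a potassium channel of leukocytes, had 2 counts over the 4 tumour cell libraries and 1357 over the stroma, a ratio of 932 (95% counting interval 258 to 7707), and Ucp1, the uncoupling protein of brown fat, had 2 and 1207, a ratio of 829 (229 to 6856).

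**Figure D2:**
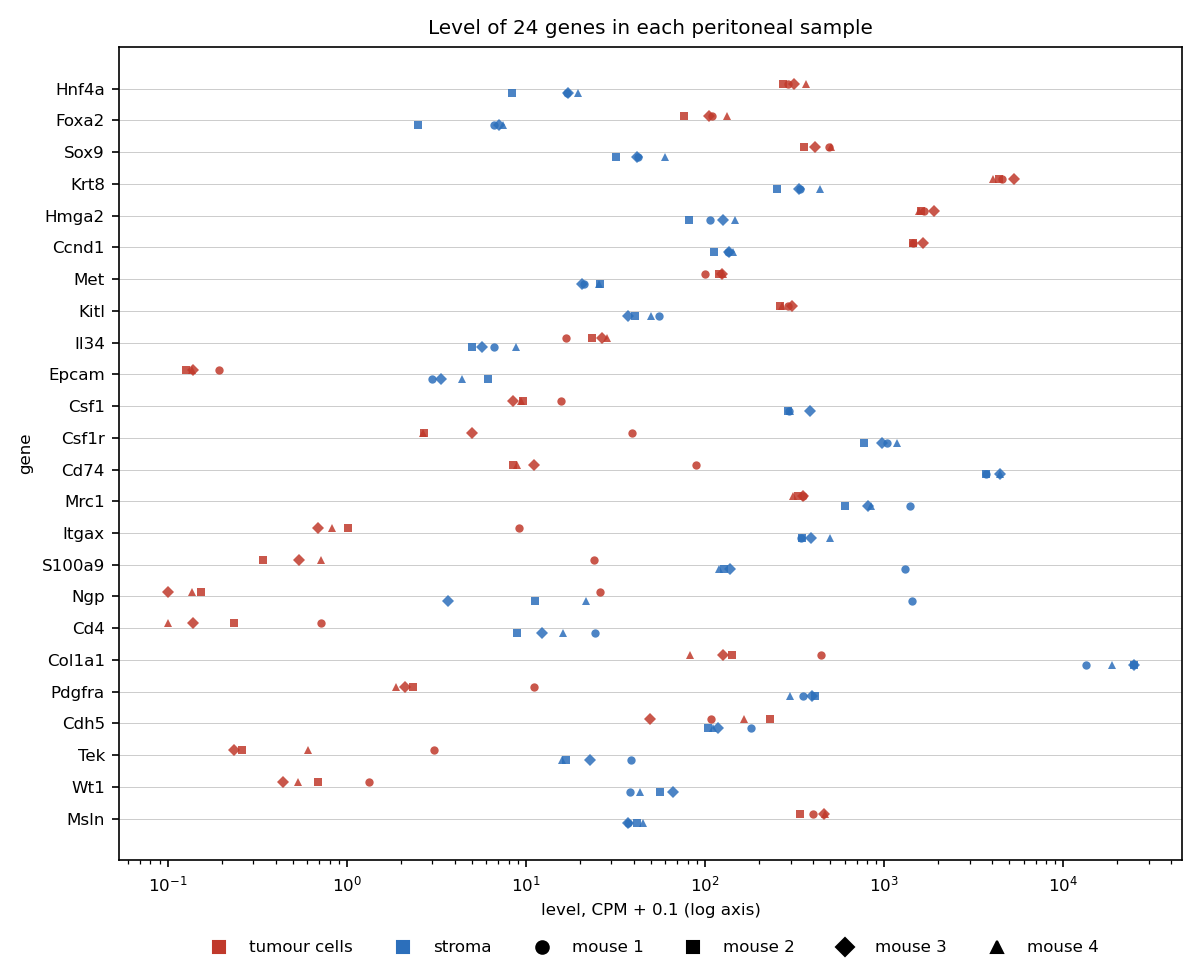
Points give the level of 24 genes in each of the 8 peritoneal libraries on a log axis, as CPM + 0.1, with tumour cells in red, stroma in blue and a symbol for each mouse. The genes from Hnf4a to Il34, and Msln, lie to the right in tumour cells, the others from Epcam down lie to the left except Cdh5 and Ngp, which overlap, and the circle of mouse 1 is the highest tumour cell value for Csf1r, Cd74, Itgax, S100a9, Ngp, Col1a1 and Tek.

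Hepatic transcription factors were mostly higher in tumour cells. Of 14 list members that passed the filter, 9 were higher in tumour cells and 4 in stroma, with a median log2 fold change of 3.45. Onecut2, which acts in biliary and hepatic fate, stood at 559.6, 437, 432 and 385 CPM against 28.7, 18.8, 27.2 and 54.3 CPM, 3.92 ± 0.33 (SE, adjusted p = 3.00e-04). Sox9, a factor of progenitors and bile ducts, was at 489, 358, 408 and 505 against 42.1, 31.6, 41.6 and 59.8 CPM, 3.35 ± 0.11 (SE, adjusted p = 5.56e-05). The 4 members higher in stroma were Cebpa, a factor of mature hepatocytes that also directs the myeloid lineage, at 137, 96.5, 144 and 135 CPM against 17.8, 12.5, 10.7 and 17.6 CPM in tumour cells (-3.15 ± 0.17 SE, adjusted p = 1.02e-04), Prox1 (-2.82), which marks hepatoblasts and lymphatic endothelium, Tbx3 (-5.08) and Nr5a2, which had 3 counts over the tumour cell libraries. All 4 had non-overlapping values, as had 72.8% of all genes tested.

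Epithelial genes split by kind. Of 23 members tested, 15 were higher in tumour cells and 5 in stroma, with a median of 3.07. The simple-epithelium keratins Krt8 and Krt18 stood at 4554, 4359, 5317 and 4025 CPM and 2470.3, 2531, 2665 and 2079.7 CPM in tumour cells and at 338, 252, 332 and 435 CPM and 179, 149, 175 and 246 CPM in stroma, with log2 fold changes of 3.77 and 3.72. Epcam, the adhesion molecule of many epithelia and of hepatic progenitors, went the other way: it lay at 0.0923, 0.0268, 0.0380 and 0.0364 CPM in tumour cells, at most the level of 3 counts, and at 2.90, 6.06, 3.26 and 4.27 CPM in stroma, -6.28 ± 0.47 (SE, adjusted p = 2.18e-04). Claudin 3 (Cldn3, 2 counts in tumour cells against 130), tricellulin (Marveld2, -4.26), the membrane protease St14 (-4.92) and its inhibitor Spint1 (-1.99) were also higher in stroma. Their stromal levels were low, at 2.17 to 6.01 CPM for St14, and the call of Spint1 was lost when mouse 2, 3 or 4 was left out.

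Oncofetal genes, which the embryonic liver uses and adult tissue silences, divided between the fractions. Of 15 tested, 8 were higher in tumour cells and 7 in stroma. Hmga2, a chromatin protein of embryonic and tumour cells, was at 1667, 1607, 1884 and 1571 CPM against 107, 81.6, 126 and 146 CPM, 3.90 ± 0.17 (SE, adjusted p = 6.55e-05), and Cd24a, a surface marker of progenitors, at 815, 706, 764 and 672 against 249, 174, 163 and 181 CPM, 1.97 ± 0.11 (SE, adjusted p = 9.99e-05). Those higher in stroma were the imprinted genes H19 (-6.59), Igf2 (-4.77), Dlk1 (-6.11), Peg10 (-4.08), Mest (-5.24) and Meg3 (-6.93) together with the proteoglycan Gpc3 (-7.48). Meg3 stood at 194, 524, 478 and 296 CPM in stroma and 8.03, 2.68, 1.98 and 1.71 CPM in tumour cells. The imprinted Igf2 is a growth factor of the fetal liver, and in tumour cells lay at 0.114 to 0.708 CPM.

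Secreted liver proteins were thinly measured. Only 7 of 16 passed the filter, 5 of them higher in tumour cells and 1 in stroma. Rbp4, the plasma carrier of retinol, was at 555, 509.7, 621 and 779 CPM against 46.3, 24.6, 50.6 and 47.6 CPM, 3.90 ± 0.17 (SE, adjusted p = 6.73e-05). Trf, which encodes transferrin, was at 762, 843, 565 and 1247 CPM in tumour cells and 1024, 994, 1184 and 1538 CPM in stroma and was not called (-0.51 ± 0.16 SE, adjusted p = 0.0314). Ahsg, a fetuin of hepatocytes, was the member higher in stroma, at 11.8, 5.61, 7.14 and 3.94 CPM against 0.185, 0.0268, 0.0190 and 0 CPM (-7.09).

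Erk targets and feedback inhibitors were more often higher in tumour cells, with 11 of 20 higher there, 3 higher in stroma and a median of 1.22. Dusp6, the phosphatase that turns off Erk, was at 453, 384, 558 and 364 CPM against 176, 139, 159.9 and 184 CPM, 1.40 ± 0.14 (SE, adjusted p = 5.30e-04). Etv4, an ETS factor induced by Erk, was at 121, 140.2, 148 and 163 against 16.9, 22.2, 23.4 and 22.3 CPM, 2.76 ± 0.07 (SE, adjusted p = 5.55e-05). Spry2, a Sprouty inhibitor of receptor signalling, was at 280.4, 183, 219.9 and 217 against 54.0, 49.2, 50.8 and 50.1 CPM, 2.12 ± 0.10 (SE, adjusted p = 7.00e-05), and Dusp4 had a log2 fold change of 2.18. Several members did not follow. Etv5, a close relative of Etv4, was higher in stroma at 68.6, 74.6, 69.6 and 83.6 CPM against 26.1, 35.6, 33.3 and 35.8 CPM (-1.19), as were Etv1 (-5.55) and the growth factor Ereg (-1.20). Dusp5 (0.88), Ier3 (-0.89) and Phlda1 (-0.23) were not called. Hras counts, for which it is not known whether reads of the human transgene were included, were at 48.5, 50.6, 55.9 and 43.2 CPM against 27.1, 29.4, 29.1 and 25.7 CPM, 0.83 ± 0.07 (SE, adjusted p = 2.58e-04), without overlap but short of the threshold on size.

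Most cell cycle genes were not called. Of 32 tested, 7 were higher in tumour cells, 1 in stroma and 24 were not called, with a median of 0.48. Over all genes tested, 16.2% were higher in tumour cells and 27.4% in stroma, so the 7 are not far from the share of all genes. Ccnd1, the cyclin that growth factor signals raise, had the largest change, at 1443, 1442, 1636 and 1450.2 CPM against 133, 113, 135 and 143 CPM, 3.51 ± 0.09 (SE, adjusted p = 5.55e-05). Its partner Cdk4 had a log2 fold change of 1.30, and Ccnd3, the D cyclin of haematopoietic cells, was higher in stroma (-1.39). Cdkn2a, a locus that encodes 2 tumour suppressors from overlapping reading frames and was counted as 1 gene, was at 88.5, 107, 115 and 121 CPM against 7.56, 6.19, 6.76 and 8.14 CPM, 3.91 ± 0.12 (SE, adjusted p = 5.56e-05). Among 28 glycolysis and hypoxia genes, 12 were higher in tumour cells, against 16.2% of all genes tested, and 7 in stroma, a share close to the 27.4% of all genes. Pkm (1.20) and Gapdh (1.38) of the common pathway were higher in tumour cells, whereas the lactate exporter Slc16a3 (-7.20), the glucose transporter Slc2a3 (-6.56), the leukocyte hexokinase Hk3 (-6.87), Pfkfb3 (-2.26), Pfkp (-1.30), the vasoactive peptide Adm (-6.36) and Car9 (-1.41) were higher in stroma. Slc16a3 was at 273, 257, 274 and 335 CPM in stroma and 7.11, 1.5, 1.29 and 0.800 CPM in tumour cells. The call of Car9 was lost without mouse 2, and Gapdh has pseudogenes whose reads the counting could have split from it.

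**Figure D3:**
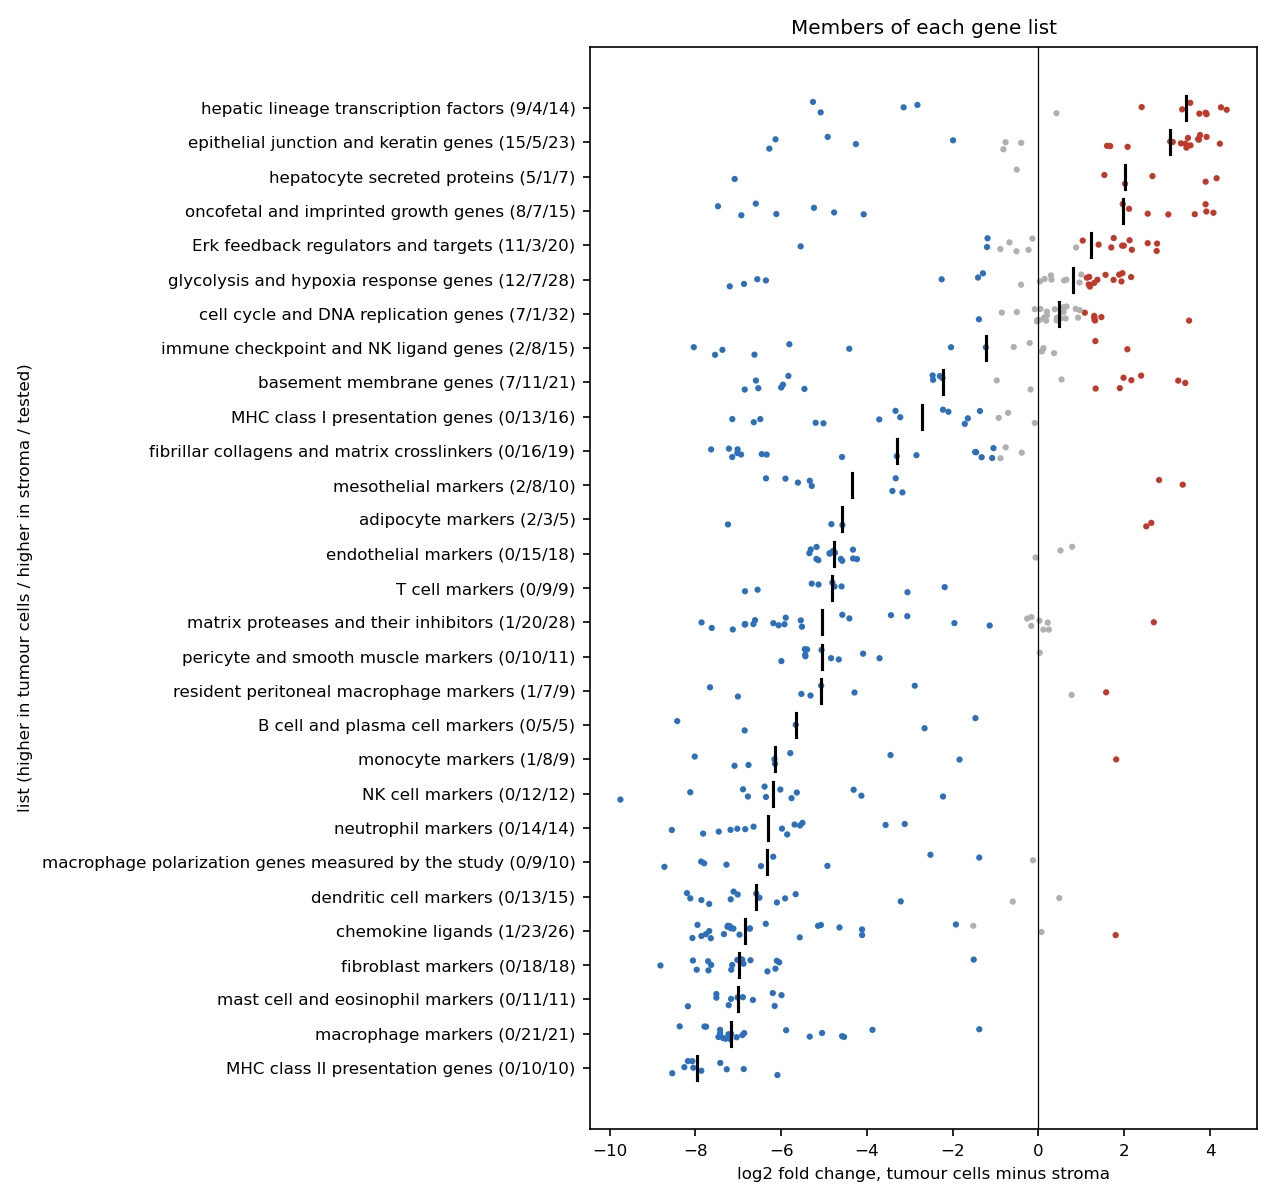
Each point is a gene that passed the filter, placed by its log2 fold change and coloured red when higher in tumour cells, blue when higher in stroma and grey when not called, for the 29 lists with at least 5 such genes, and a black bar marks the median. The numbers after each name are members higher in tumour cells, higher in stroma and tested, and the values are fitted ones, also for genes without a count in tumour cells. The medians of the hepatic factor and epithelial lists, 3.45 and 3.07, sit at the top, that of the cell cycle list at 0.48, and those of the macrophage and MHC class II lists, -7.17 and -7.96, at the bottom.

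The medians of host lists moved when both libraries of mouse 1 were left out, while the counts of members called moved less. Without this mouse the macrophage median was -7.98 in place of -7.17, that of MHC class II -8.91 in place of -7.96, that of mast cells and eosinophils -8.82 in place of -7.02, and that of neutrophils -8.36 in place of -6.31. The counts of macrophage, MHC class II and mast cell members higher in stroma were the same without this mouse, at 21, 10 and 11, and that of neutrophil members was 12 in place of 14.

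Macrophage genes were higher in stroma throughout. All 21 macrophage markers were higher in stroma, with a median of -7.17 and non-overlapping values, which 72.8% of all genes tested also had. Csf1r, the receptor that macrophages need to survive, was at 1035, 774, 971 and 1172 CPM in stroma and 38.9, 2.60, 4.89 and 2.55 CPM in tumour cells, -7.43 ± 0.90 (SE, adjusted p = 9.03e-04). Lyz2, the lysozyme of myeloid cells, was at 2268, 1638, 2080.0 and 1806 against 89.8, 6.22, 12 and 6.19 CPM (-7.17), and Itgam, the integrin known as CD11b, at 702, 638, 642 and 715 against 18.7, 0.590, 1.27 and 1.31 CPM (-8.37). Mouse 1 tumour cells again held the highest tumour cell level of each. Mrc1, the mannose receptor of alternatively activated macrophages, behaved unlike the others: it was at 351, 328, 351 and 310.4 CPM in tumour cells, level in all 4 mice, against 1399.8, 606, 810.4 and 842 CPM in stroma, -1.38 ± 0.19 (SE, adjusted p = 0.00149).

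Markers of macrophages that reside in the peritoneal cavity were mostly stromal, 7 of 9, with a median of -5.07. Alox15, a lipoxygenase of these cells, was at 66.8, 76.8, 33.4 and 74.6 CPM against 1.35, 0.0536, 0 and 0.255 CPM (-7.66), and Fn1, fibronectin, at 12976, 16183, 15751 and 16081 against 1863, 2509, 1521 and 2509 CPM (-2.88). Alox15 was not particular to the peritoneum, with 92.6, 93.8, 66.6 and 45.4 CPM in the stroma of the liver tumours. Of the 9 markers, only Fn1 had a called difference between the sites. Gata6, which defines the resident macrophage and is also a factor of endoderm, was the member higher in tumour cells, at 110.0, 78.0, 82.4 and 80.1 CPM against 27.4, 36.0, 25.8 and 28.0 CPM, 1.58 ± 0.15 (SE, adjusted p = 4.54e-04). Monocyte markers were higher in stroma in 8 of 9 cases. Ccr2, the receptor that draws monocytes out of the marrow, was at 331, 397, 315 and 274 CPM in stroma and 9.45, 0.643, 0.684 and 0.473 CPM in tumour cells (-8.02), Nr4a1 had a log2 fold change of -3.45 and Vcan of -1.84, whereas Plac8 was at 312, 307, 325 and 286 CPM in tumour cells against 122, 81.4, 65.4 and 89.4 CPM (1.81). Dendritic cell markers were higher in stroma in 13 of 15 cases, led by Cd83 (-8.20) and Itgax (-8.12), while the actin bundler Fscn1 was at 272, 298, 341 and 299 CPM in tumour cells and 182, 253, 235 and 199 CPM in stroma and was not called.

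The genes by which the study judged macrophage polarisation lay in the stroma with 1 exception. Of 10 tested, 9 were higher in stroma, with a median of -6.33. Arg1, the arginase of alternatively activated macrophages, was at 246, 320.5, 314 and 633 CPM against 6.89, 0.590, 1.31 and 1.02 CPM (-7.80), and Nos2, the inducible nitric oxide synthase of classically activated ones, at 12.4, 20.3, 16.6 and 69.2 against 0.923, 0.134, 0.0761 and 0.109 CPM (-6.47). Both were highest in the stroma of mouse 4. Il10 (-6.19), Il6 (-7.28), Tnf (-7.87) and the interleukin 1 antagonist Il1rn (-2.52) were higher in stroma too. Tgfb1 was at 456, 437, 418 and 589 CPM in tumour cells and 439, 499, 497 and 643 CPM in stroma, overlapping and not called (-0.13 ± 0.08 SE, adjusted p = 0.197).

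Neutrophil genes spread widely between mice. All 14 markers were higher in stroma, with a median of -6.31. Of these, 8 had non-overlapping values, against 72.8% of all genes tested, while in the other 6 the tumour cells of mouse 1 exceeded at least 1 stromal library. Ngp, a granule protein of immature neutrophils, was at 1426, 11.1, 3.56 and 21.4 CPM in stroma and 25.8, 0.0536, 0 and 0.0364 CPM in tumour cells (-6.64 ± 0.53 SE, adjusted p = 2.59e-04). S100a9, an abundant calcium-binding protein of neutrophils, was at 1314, 128, 137 and 119.6 against 23.7, 0.241, 0.437 and 0.619 CPM (-7.46 ± 0.64 SE, adjusted p = 3.21e-04). The stroma of mouse 1 thus lay far above the other 3 in both genes, and the summed CPM of the list was 5995 in its stroma against 780 in the lowest stromal library. Il1r2, by contrast, was even across mice at 187, 178, 267 and 291 CPM in stroma, and Csf3r, the receptor for the neutrophil growth factor, was at 256, 240.4, 272 and 243 CPM. The call of Ngp was lost in the fit without the mouse term, and was kept without mouse 1.

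Lymphocyte transcripts were at low levels, with a sum over all NK markers of 22.7 to 51.9 CPM in stroma. All 12 NK markers tested were higher in stroma, with a fitted median of -6.19, or -5.70 with the genes without a tumour cell count placed at their bound. A marker nearly absent from tumour cells passes the filter on low counts only through the stromal libraries. The direction of such NK, T and B cell markers was therefore largely set by the filter, and the counts of members called are no evidence for it. Klrb1c, the NK1.1 receptor, had no count in tumour cells and lay at 2.30, 3.45, 3.98 and 3.17 CPM in stroma, at least 38.0-fold higher against a floor of 3 counts per library. Klrk1, the activating receptor NKG2D, was at 8.55, 6.63, 4.33 and 8.02 against 0.339, 0.107, 0.0570 and 0.0364 CPM (-5.76), and Il2rb at 11.1, 8.22, 6.34 and 11.6 against 0.677, 0.375, 0.475 and 0.291 CPM (-4.31). All 9 T cell markers tested were higher in stroma as well, Cd4 at 24, 8.84, 12.1 and 16 CPM (-6.55), Cd3e at 8.27, 8.66, 8.11 and 19.1 CPM against 3.02, 1.26, 0.703 and 0.728 CPM (-3.06), and Ctla4 with 1 count over the tumour cells against 129, a ratio of 177 (95% counting interval 31.3 to 7056). Cd4 is also made by macrophages and dendritic cells. In bulk libraries fewer cells of a type and less RNA per cell cannot be told apart. The 5 B cell and plasma cell markers tested were higher in stroma, with a fitted median of -5.66 or -4.0 with bounds, among them Cd22 (-5.66), Xbp1 (-1.47), which all secretory cells use, and Cd79b, absent from tumour cell counts and at least 16-fold higher in stroma.

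Mast cell and eosinophil markers, 11 of 11 tested, were higher in stroma with a median of -7.02, against 27.4% of all genes tested. Members nearly absent from tumour cells passed the filter only through the stroma, so this count is no evidence for their direction. Tpsb2, a mast cell tryptase, was at 128, 63.9, 341 and 77.6 CPM against 4.03, 0.134, 0.342 and 0.400 CPM (-7.51), and Hdc, which makes histamine, at 160.2, 89.6, 172 and 103 against 2.62, 0.429, 0.551 and 0.728 CPM (-7.17). Fcer1a, a chain of the IgE receptor, had 3 counts over the tumour cells and 768 over the stroma, a ratio of 352 (95% counting interval 120 to 1710). Tpsb2 and Fcer1a were highest in the stroma of mouse 3.

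Connective tissue genes were higher in stroma. All 18 fibroblast markers were higher in stroma, with a median of -6.97, and 17 had non-overlapping values, as had 72.8% of all genes tested. Col1a1 and Col3a1, the chains of the main fibrillar collagens, were at 13453, 24653, 24698 and 18634 CPM and 25061, 30835, 33749.7 and 22427 CPM in stroma, and at 445, 141, 126 and 81.8 CPM and 641, 89.9, 114 and 73.7 CPM in tumour cells, with log2 fold changes of -7.02 and -7.63. The tumour cells of mouse 1 exceeded the other 3 in both genes. Of 19 fibrillar collagens and crosslinking enzymes, 16 were higher in stroma and none in tumour cells, with a median of -3.30. Of 11 pericyte and smooth muscle markers, 10 were higher in stroma, with a median of -5.06, among them Acta2 (-5.44), Rgs5 (-3.71) and Kcnj8 (-6.00).

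Basement membrane genes divided by subunit. Of 21 tested, 7 were higher in tumour cells and 11 in stroma, with a median of -2.24. The laminin chains of epithelia were on the tumour cell side: Lama5 stood at 632, 977, 959 and 1143 CPM against 65.6, 82.0, 77.9 and 122 CPM, 3.42 ± 0.11 (SE, adjusted p = 5.56e-05), Lamb3 had a log2 fold change of 3.26, Lama3 of 1.90 and Lamb1 of 1.33. Col18a1, whose fragment is endostatin, was at 1429, 2062, 1660.1 and 1736 against 317, 307, 347 and 329 CPM (2.39 ± 0.12 SE, adjusted p = 8.75e-05), and agrin (Agrn) had 2.17. Col4a1, the network collagen of basement membranes, was at 1719, 1979.8, 1872 and 1673 CPM in stroma against 402, 364, 323 and 383 CPM (-2.30 ± 0.11 SE, adjusted p = 7.73e-05), and the linker Nid1 at 1191, 1020.4, 987 and 815 against 38.7, 4.96, 6.16 and 5.13 CPM (-6.85 ± 0.62 SE, adjusted p = 3.64e-04).

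Matrix proteases were mostly stromal, with 20 of 28 tested higher in stroma, 1 in tumour cells and a median of -5.05. Mmp12, the macrophage elastase, was at 523, 578, 560.4 and 902 CPM against 12.8, 1.63, 2.30 and 0.982 CPM, -7.86 ± 0.92 (SE, adjusted p = 7.92e-04), and Ctsb, a lysosomal protease, had -1.96. Mmp10, a stromelysin of epithelia, was the single member higher in tumour cells, at 8.13, 18.1, 18.4 and 52.3 CPM against 1.84, 3.80, 2.23 and 5.45 CPM, 2.69 ± 0.24 (SE, adjusted p = 3.66e-04). Mmp10 lies in a cluster of metalloprotease genes on chromosome 9 with Mmp12, Mmp3 and Mmp13, and the last 2, chosen after their values were seen, were higher in stroma, Mmp3 at 73.9, 115, 126 and 76.9 CPM against 2.03, 0.509, 1.44 and 0.327 CPM (-6.61) and Mmp13 at 235, 245, 263 and 352 against 21.5, 28.4, 12.4 and 49.9 CPM (-3.44). Neighbours in the cluster thus had opposite directions. Mmp8, a collagenase of neutrophils in the same cluster, also chosen after its values were seen, was at 126, 13.3, 18.0 and 15.8 CPM in stroma against 1.42, 0.0268, 0.190 and 0.0728 CPM (-6.84).

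The 250 bases before the start sites of Mmp13, Mmp12, Mmp3 and Mmp10 are shown because these 4 hold the 7 letters of the AP-1 site, TGAGTCA, the element bound by Fos and Jun proteins downstream of Erk, although the genes differ in direction. The letters are not a trait of the whole cluster, since the same window of Mmp8 and the other start site of Mmp12 do not hold them. Sequences are from RefSeq for build GRCm38.p6, read 5′ to 3′ on the strand of the gene, and capitals mark the motif letters on either strand and the TATA box, TATAAA. Of 2 Mmp12 start sites the one with the AP-1 letters is given.
Mmp13 (chr9:7272264-7272513, plus strand): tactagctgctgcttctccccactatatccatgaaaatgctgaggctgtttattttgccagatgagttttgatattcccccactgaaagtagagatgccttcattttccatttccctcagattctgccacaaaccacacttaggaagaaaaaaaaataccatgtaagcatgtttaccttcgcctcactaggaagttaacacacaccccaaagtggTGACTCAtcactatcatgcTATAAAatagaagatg
Mmp12 (chr9:7347124-7347373, plus strand): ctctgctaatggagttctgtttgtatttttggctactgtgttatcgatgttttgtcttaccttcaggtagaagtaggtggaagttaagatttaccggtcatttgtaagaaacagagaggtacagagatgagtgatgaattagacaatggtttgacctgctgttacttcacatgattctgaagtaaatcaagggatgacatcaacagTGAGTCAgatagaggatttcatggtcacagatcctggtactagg
Mmp3 (chr9:7445572-7445821, plus strand): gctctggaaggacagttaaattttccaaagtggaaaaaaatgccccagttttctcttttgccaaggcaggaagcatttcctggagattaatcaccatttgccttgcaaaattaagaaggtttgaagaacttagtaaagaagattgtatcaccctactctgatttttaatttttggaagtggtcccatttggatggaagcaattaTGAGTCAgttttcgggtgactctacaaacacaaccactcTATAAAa
Mmp10 (chr9:7502092-7502341, plus strand): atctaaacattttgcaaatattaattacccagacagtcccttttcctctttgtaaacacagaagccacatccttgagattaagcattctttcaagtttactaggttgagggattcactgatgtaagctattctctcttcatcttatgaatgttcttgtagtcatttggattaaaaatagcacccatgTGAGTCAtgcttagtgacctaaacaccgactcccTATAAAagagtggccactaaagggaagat
The AP-1 letters begin 63 bases before the start of Mmp10, 46 bases before that of Mmp3, 44 before that of Mmp12 and, on the other strand, 35 before that of Mmp13. These letters were found in 5.21% of 2380 promoters of genes higher in tumour cells, in 4.46% of 3880 of genes higher in stroma, in 2.69% of 8313 of genes tested and not called and in 4.46% of all 32851 promoters. Promoters were matched by gene identifier for 11478 of the 14584 genes tested, and start sites of 1 gene can overlap.

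Other short motifs were counted in the same way. GAGGAAGT, a site of the myeloid factor PU.1, was in 3.76% of promoters of genes higher in stroma, 2.31% of those higher in tumour cells, 2.24% of those tested and not called and 2.44% of all promoters. CCGGAAGT, a general ETS site, was in 1.39% of the first, 3.87% of the second and 2.88% of all, and in 7.48% of promoters of genes tested and not called. CAAAGTCCA, a site of Hnf4, was in 0.412% of promoters of stromal genes, 0.546% of promoters of tumour cell genes, 0.241% of those tested and not called and 0.384% of all. The first 2 of these shares rest on only 16 and 13 promoters. TATAAA was in 8.66% of promoters of stromal genes, 7.48% of those of tumour cell genes, 5.94% of those tested and not called and 12.4% of all. The PU.1 and ETS sites share their last 6 letters and differ in the first 2, so that no stretch can match both, and all shares are descriptions without a test. Promoters of Rbp4, higher in tumour cells, and of 2 stromal genes chosen after their values were seen, the neutrophil gene S100a8 (-5.86) and the complement gene C1qc of macrophages (-6.91), are given as examples, with AP-1, PU.1 and TATA letters in capitals.
Rbp4 (chr19:38124812-38125061, minus strand): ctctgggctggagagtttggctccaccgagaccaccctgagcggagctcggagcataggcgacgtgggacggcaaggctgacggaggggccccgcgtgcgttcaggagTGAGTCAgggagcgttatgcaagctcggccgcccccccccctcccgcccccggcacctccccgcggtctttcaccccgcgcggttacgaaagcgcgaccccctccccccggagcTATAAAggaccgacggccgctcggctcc
S100a8 (chr3:90668821-90669070, plus strand): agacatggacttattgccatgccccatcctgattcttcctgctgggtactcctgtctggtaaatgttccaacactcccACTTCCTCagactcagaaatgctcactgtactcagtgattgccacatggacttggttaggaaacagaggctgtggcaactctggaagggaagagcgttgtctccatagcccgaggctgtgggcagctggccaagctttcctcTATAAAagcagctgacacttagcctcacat
C1qc (chr4:136892915-136893164, minus strand): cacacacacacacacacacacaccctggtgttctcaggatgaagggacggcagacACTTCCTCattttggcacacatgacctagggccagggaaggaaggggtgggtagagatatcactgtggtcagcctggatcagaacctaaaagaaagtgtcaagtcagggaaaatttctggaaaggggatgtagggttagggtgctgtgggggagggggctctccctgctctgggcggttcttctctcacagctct
S100a8 stood at 1040.1, 59.4, 55.3 and 59.1 CPM in stroma and C1qc at 706, 355, 567 and 743 CPM, so that S100a8 was high in mouse 1 alone.

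Vessel markers were higher in stroma for 15 of 18 genes, with a median of -4.76. Tek, the angiopoietin receptor of endothelium, was at 38.7, 16.5, 22.7 and 15.7 CPM against 2.95, 0.161, 0.133 and 0.509 CPM (-5.34 ± 0.67 SE, adjusted p = 0.00104). Cdh5, the cadherin of endothelial junctions, was not: it stood at 108, 229, 49.2 and 164 CPM in tumour cells and 179, 103, 117 and 111 CPM in stroma, overlapping (-0.07 ± 0.44 SE, adjusted p = 0.898). Flt1, a receptor for Vegf, was at 132, 137, 91.0 and 215 against 90.5, 78.4, 63.3 and 88.8 CPM (0.79) and did not pass the threshold on size, and Flt4, the Vegf receptor of lymphatic vessels, was not called either (0.51). With these genes included, the summed endothelial markers of the tumour cells reached 30.1%, 47.5%, 21.0% and 57.7% of the stromal sum, while Tek did not exceed 3 CPM there. Selp, an adhesion molecule of platelets and endothelium, was at 47.3, 28.6, 19.9 and 69.5 CPM in tumour cells and 45.7, 33.7, 28.0 and 37.2 CPM in stroma and was not called.

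Mesothelial cells line the peritoneum, and 8 of 10 of their markers tested were higher in stroma. Wt1, a factor of mesothelium, was at 37.9, 56.1, 66.0 and 43.0 CPM against 1.23, 0.590, 0.342 and 0.437 CPM (-6.35 ± 0.47 SE, adjusted p = 2.16e-04). Msln, mesothelin, which many carcinomas also carry, was at 400.0, 336, 458 and 468 CPM in tumour cells against 37.0, 41.8, 37.0 and 44.7 CPM in stroma (3.36 ± 0.13 SE, adjusted p = 5.69e-05), and Bnc1 had 2.81. Of 5 adipocyte markers tested, Pparg (2.52) and the lipid droplet gene Cidec (2.63) were higher in tumour cells, and Lpl (-7.24), Fabp4 (-4.57) and Cd36 (-4.83) in stroma. Adipoq, Plin1 and Lep, the defining genes of fat cells, did not pass the filter. Fabp4 was at 129, 23.3, 28.1 and 27.0 CPM in stroma and 23.4, 0.456, 0.456 and 0.800 CPM in tumour cells, high in mouse 1 in both, and its call was lost in the fit without the mouse term.

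Antigen presentation genes were mostly higher in stroma. All 10 MHC class II genes tested were higher in stroma, with a median of -7.96. Cd74, the invariant chain, was at 3691, 3702, 4442 and 4449 CPM against 88.3, 8.39, 11.0 and 8.77 CPM (-8.07 ± 0.88 SE, adjusted p = 6.37e-04). Of 16 class I genes, 13 were higher in stroma and none in tumour cells, with a median of -2.73. Psmb8, a subunit of the immunoproteasome, was at 76.6, 65.1, 66.4 and 73.1 CPM against 2.31, 0.214, 0.133 and 0.218 CPM (-7.14 ± 0.75 SE, adjusted p = 5.58e-04). The chaperones Calr (-0.93) and Pdia3 (-0.08), which every cell needs, were not called, and reads of the class I heavy chain genes can be shared between near-identical copies.

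Among 15 checkpoint and NK ligand genes, 2 were higher in tumour cells, a share close to the 16.2% of all genes tested. In stroma 8 were higher, against 27.4% of all genes tested, and the median was -1.23. Cd274, which encodes PD-L1, was at 106, 120.0, 115 and 201 CPM in stroma and 3.97, 2.09, 1.48 and 2.29 CPM in tumour cells (-5.81 ± 0.35 SE, adjusted p = 1.25e-04). Cd80 (-8.04) and Vsir (-7.54), ligands of T cell checkpoints, were stromal too, and Cd47, the signal against phagocytosis, was at 155, 131, 144 and 132 CPM and 169, 114, 122 and 119 CPM and was not called. Havcr2, also called TIM-3, was higher in tumour cells at 163, 153, 136 and 175 CPM against 51.7, 41.0, 81.4 and 86.0 CPM (1.33 ± 0.22 SE, adjusted p = 0.00269). Raet1e, a ligand of the NK receptor NKG2D, was at 1.11, 1.02, 1.29 and 0.800 CPM against 0.212, 0.221, 0.226 and 0.331 CPM (2.07), with near-identical relatives that make its counts uncertain. Ceacam1, an inhibitory adhesion molecule, was at 15.5, 18.9, 6.76 and 9.75 CPM in stroma and 5.08, 3.16, 0.894 and 4.44 CPM in tumour cells (-2.04 ± 0.34 SE, adjusted p = 0.00316). Of 3 other genes that the study took up with it, the casein gene Csn3 was higher in tumour cells (3.61), while Tmem252 (-0.08) and Selp (0.05) were not called.

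Chemokine genes were mostly higher in stroma. Of 26 tested, 23 were higher in stroma, with a median of -6.85. Cxcl2, which attracts neutrophils, was at 763, 882, 736 and 1047 CPM against 20.0, 1.18, 2.0 and 2.47 CPM (-8.07 ± 0.95 SE, adjusted p = 8.25e-04), and Ccl6, a macrophage chemokine, at 1273, 823, 774 and 888 against 45.1, 3.40, 5.68 and 1.49 CPM (-7.24). Cx3cl1, fractalkine, was the member higher in tumour cells, at 85.7, 114, 108 and 106 CPM against 27.1, 31.2, 38.7 and 23.3 CPM (1.80 ± 0.13 SE, adjusted p = 2.09e-04), and its receptor Cx3cr1, of monocytes and macrophages, was at 115, 68.9, 114 and 128 CPM in stroma against 4.92, 1.02, 0.761 and 0.873 CPM (-6.16).

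Of 60 pairs of a ligand and its receptor, both genes were called in 41. In 22 both were higher in stroma, in 16 the ligand was higher in tumour cells and the receptor in stroma, in 2 the ligand was stromal and the receptor higher in tumour cells, and in 1 both were higher in tumour cells. Of all genes tested, 43.6% were called, 16.2% higher in tumour cells and 27.4% higher in stroma. Some genes, among them Egfr and Cxcr2, stand in several pairs, so the pairs are not independent. Ligands higher in tumour cells with a stromal receptor included growth factors of myeloid cells. Il34, the second ligand of Csf1r, was at 16.7, 23.2, 26.4 and 28.4 CPM in tumour cells against 6.54, 4.91, 5.56 and 8.72 CPM (1.88 ± 0.19 SE, adjusted p = 5.19e-04), whereas Csf1, the first ligand, was at 293, 291, 383 and 298 CPM in stroma against 15.6, 9.54, 8.37 and 9.28 CPM (-4.92 ± 0.24 SE, adjusted p = 8.15e-05). The ligands of this receptor were thus divided between the fractions. Csf2, or GM-CSF, was at 15.1, 7.75, 10.3 and 8.15 against 2.54, 1.5, 2.13 and 4.38 CPM (2.02), and its receptor Csf2ra had -8.05. Kitl, the growth factor of mast cells, was at 291, 263, 305 and 269 against 55.2, 40.3, 37.0 and 49.5 CPM (2.65 ± 0.13 SE, adjusted p = 8.63e-05), and its receptor Kit was at 41.5, 34.3, 75.0 and 32.6 CPM in stroma against 1.38, 0.134, 0.152 and 0.109 CPM (-7.02).

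Ligands of the Egf receptor made up 4 of the 16. Tgfa was at 181, 206, 209 and 172 CPM in tumour cells against 15.5, 13.7, 16.5 and 19.2 CPM (3.57 ± 0.14 SE, adjusted p = 5.71e-05), and Btc at 204, 172, 193 and 224 against 16.4, 8.57, 11.0 and 14.1 CPM (4.02 ± 0.14 SE, adjusted p = 5.56e-05). Areg (2.55) and Hbegf (1.95) were also higher in tumour cells. Ereg, another ligand of Egfr among the pairs, went the other way and was higher in stroma (-1.20). Egfr itself was at 105, 127, 112 and 96.1 CPM in stroma and 45.4, 50.3, 47.1 and 54.5 CPM in tumour cells (-1.15 ± 0.10 SE, adjusted p = 3.62e-04), a smaller difference than those of the 4 ligands higher in tumour cells. Platelet-derived growth factors Pdgfa (1.89) and Pdgfb (1.18) were higher in tumour cells and their fibroblast receptors Pdgfra (-6.88) and Pdgfrb (-6.14) in stroma. The Notch ligand Jag1 was at 627, 773, 969 and 595 against 99.1, 112, 117 and 146 CPM (2.63) with Notch3 at -5.06, Dll4 (2.39) stood opposite Notch1 (-4.29), Wnt7b (3.67) opposite Fzd1 (-2.83) and Sema3c (2.47) opposite Nrp2 (-2.90). Lif (1.03) with Lifr (-6.06) and Mif (1.03) with Cd74 complete the group, and both ligands lay so close to the threshold that Lif lost its call in 8 and Mif in 6 of 13 other settings.

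Among the chosen pairs, 2 had a ligand called higher in stroma and a receptor called higher in tumour cells. Hgf, the growth factor of hepatocytes, was at 17.0, 14.3, 15.9 and 17.1 CPM in stroma against 0.677, 0.0804, 0.0190 and 0.182 CPM (-6.41 ± 0.70 SE, adjusted p = 6.40e-04), and its receptor Met was at 100.2, 119, 124 and 126 CPM in tumour cells against 21.0, 25.7, 20.5 and 25.4 CPM in stroma (2.34 ± 0.09 SE, adjusted p = 5.71e-05). Every tumour cell value of Met exceeded every stromal value, and the reverse held for Hgf, as groups did not overlap for 72.8% of all genes tested. Ceacam1 with Havcr2 was the other pair of this kind. In 2 further pairs the ligand was stromal and the receptor, not called, was present in both fractions. Axl, a receptor of Gas6 (-6.09), was at a mean of 801 CPM in tumour cells and 735 CPM in stroma. Igf1r, the receptor of Igf1 (-7.52), was at 116 and 93.5 CPM. Efna1 (2.80) and its receptor Epha2 (2.94) were both higher in tumour cells. Pairs within the stroma included Ccl2 (-7.76) with Ccr2, Cxcl12 (-6.73) with Cxcr4 (-6.96), and Osm (-7.91) with Osmr (-6.46).

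**Figure D4:**
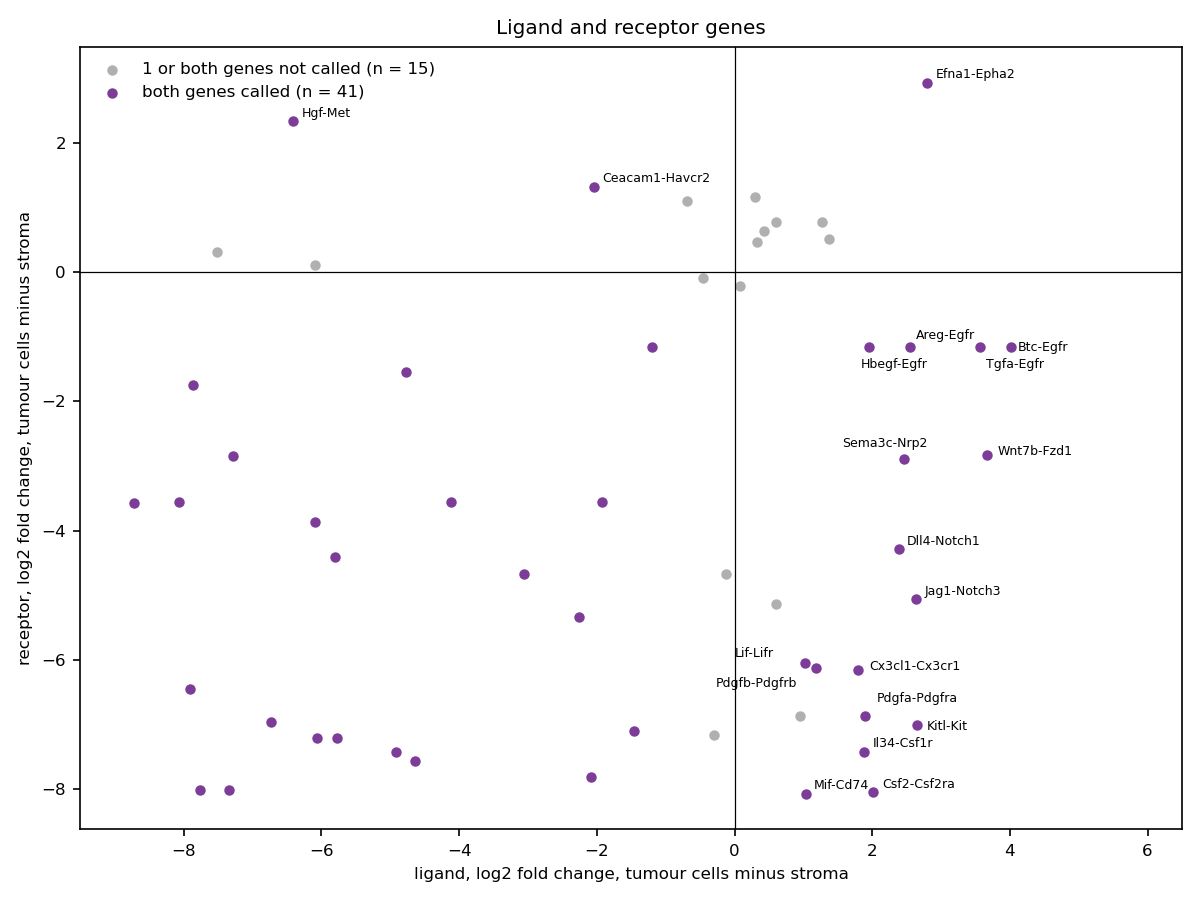
Each point is 1 of 56 pairs with both genes tested, with the log2 fold change of the ligand on the x axis and of the receptor on the y axis, purple when both genes were called and grey otherwise. Points at the lower right have a ligand higher in tumour cells and a receptor higher in stroma, Hgf with Met stands at the upper left, and Efna1 with Epha2 is the only purple point at the upper right.

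The liver tumours of the same 4 mice, sorted in the same way, showed which of these differences were larger or smaller in the peritoneum. The difference between sites was called for 1026 of 15331 genes tested (6.69%), 409 (2.67%) with a higher log2 fold change in peritoneum and 617 (4.02%) with a lower one, and its median over all genes tested was 0.11. Without mouse 2 it was called for 561 genes and without mouse 3 for 650. Of the 617, 383 were genes higher in peritoneal stroma, 8 genes higher in peritoneal tumour cells, 221 not called and 5 not tested there. Of the 409, 186 were genes higher in peritoneal tumour cells, 136 genes higher in peritoneal stroma, 64 not called and 23 not tested there. The fold change in peritoneum is part of the difference between sites, so the 2 sortings are not independent. For the same 1688 genes as above, the stroma of the liver tumours held 12.9%, 14.1%, 12.4% and 15.7% of the tumour cell level at the 5th percentile, against 7.14%, 5.63%, 6.86% and 8.29% in peritoneum when all 16 libraries were normalised together. This level moved with the direction of the 186 genes, and its part in them was not tested.

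The largest differences toward peritoneal stroma were in genes of connective tissue. Col28a1, a collagen of nerve and connective tissue, was at 56.6, 62.4, 68.7 and 92.3 CPM in peritoneal stroma and 0.276, 0.235, 0.163 and 0 CPM in liver stroma, a difference between sites of -8.96 ± 1.05 (SE, adjusted p = 0.00102). Fgf7, a growth factor of mesenchyme for epithelia, was at 28.4, 27.2, 21.7 and 18.9 CPM in peritoneal stroma and 0.0251, 0.201, 0.0326 and 0.0380 CPM in liver stroma (-7.78 ± 0.59 SE, adjusted p = 1.80e-04). Ebf3, a transcription factor of stromal cells, was at 26.6, 28.0, 25.9 and 23.4 CPM and 0.778, 0.235, 0.228 and 0.835 CPM (-6.44 ± 0.56 SE, adjusted p = 3.32e-04). In all 3 the peritoneal stroma exceeded the liver stroma in every mouse. The tumour cells of liver tumours held 2.70, 1.19, 0.972 and 4.93 CPM of Ebf3 and 0.468, 1.13, 0.560 and 0.791 CPM of Col28a1, above the stroma of the same tumours. Osr2 (-7.12) and Tspan11 (-6.69) completed the leading 5. Pdgfra was at 349.6, 409, 394 and 297 CPM in peritoneal and 30.7, 40.3, 55.7 and 27.2 CPM in liver stroma (-3.21 ± 0.60 SE, adjusted p = 0.00753).

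Genes with a higher log2 fold change in peritoneum included those of hepatocytes and liver sinusoids. Oit3, of sinusoidal endothelium, was at 34.7, 91.0, 37.6 and 32.9 CPM in liver stroma and 1.02, 0.663, 1.0 and 0.552 CPM in peritoneal stroma (4.94 ± 0.29 SE, adjusted p = 7.78e-05). F8, the clotting factor, was at 14.5, 66.0, 28.8 and 25.1 CPM and 1.24, 0.619, 0.549 and 0.847 CPM (5.18 ± 0.55 SE, adjusted p = 6.60e-04), and Fgb, a fibrinogen chain of hepatocytes that did not pass the filter in the peritoneal libraries, had 5.33 ± 1.01 (SE, adjusted p = 0.0104). Gata4 changed direction: in peritoneum it was at 12.3, 7.45, 10.0 and 6.62 CPM in tumour cells against 0.707, 0.707, 0.453 and 1.33 CPM in stroma (3.54), and in liver at 7.51, 9.28, 12.2 and 12 CPM against 20.9, 43.6, 23.1 and 20.7 CPM (-1.42), a difference of 4.88 ± 0.49 (SE, adjusted p = 5.57e-04). Its values in tumour cells overlapped between the sites, and those in stroma did not. Oas1g (4.92), an interferon-induced gene with near-identical copies, was the last of the 5. Hnf4a had a log2 fold change of 4.39 in peritoneum and 2.84 in liver, with 241, 194, 218 and 218 CPM in liver tumour cells and 26.5, 31.2, 26.9 and 32.2 CPM in liver stroma (1.5 ± 0.21 SE, adjusted p = 0.00241). Gc had 4.61 and 1.38 (3.16 ± 0.39 SE, adjusted p = 0.00119), and Ngp, which was high in the peritoneal stroma of mouse 1, had -6.64 and -9.13 (2.70 ± 0.57 SE, adjusted p = 0.0132).

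Among the lists, 5 of 14 hepatic transcription factors and 6 of 14 neutrophil markers had a called site difference with a higher log2 fold change in peritoneum, against 2.67% of all genes. The same held for 8 of 16 hepatocyte secreted proteins, with 1 called lower in peritoneum, and for 5 of 27 epithelial junction and keratin genes. Among the secreted proteins, Fgb was at 34.9, 64.6, 31.4 and 19.2 CPM in liver stroma. Genes higher in peritoneal tumour cells, as most hepatic factors were, had such a call more often, 186 of 2369. The neutrophil markers summed to 5995 CPM in the peritoneal stroma of mouse 1 and to 780, 891 and 883 CPM in mice 2 to 4. The part of mouse 1 in their site calls was not tested. Of 19 fibrillar collagens and crosslinkers 7 had a lower log2 fold change in peritoneum, against 4.02% of all genes, as did 7 of 28 matrix proteases and 3 of 18 fibroblast markers.

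**Figure D5:**
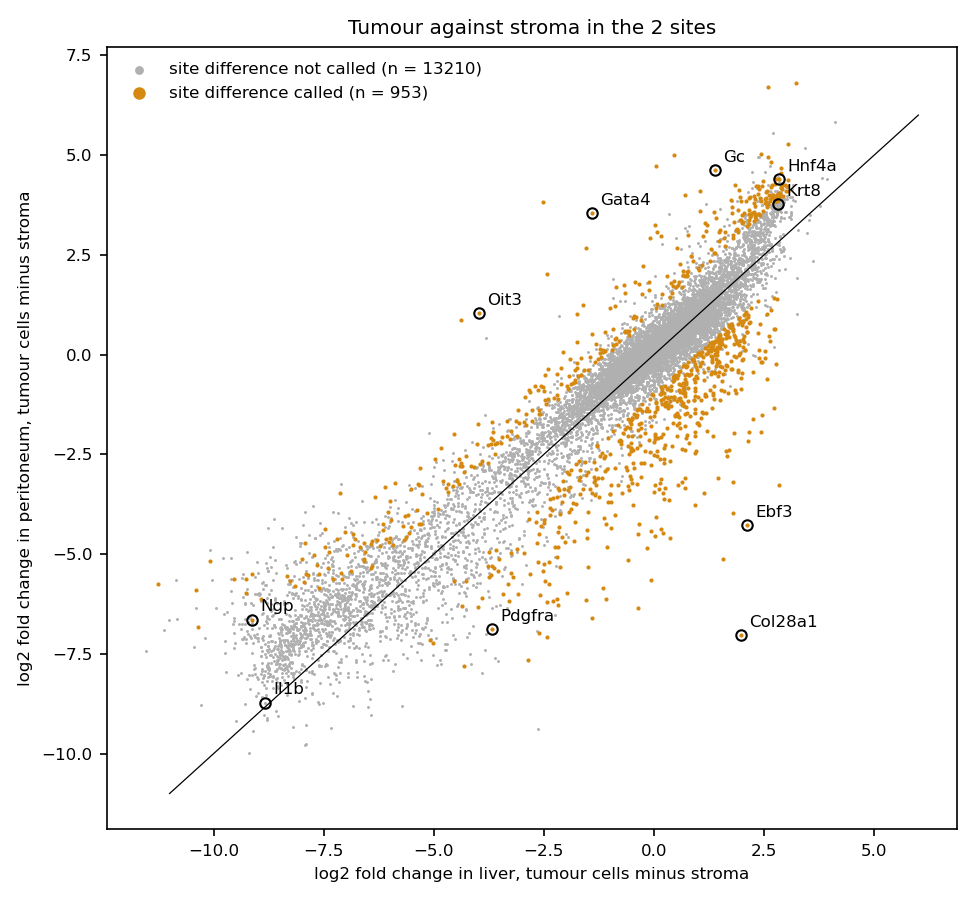
Each point is a gene with a fold change in both sites, with the log2 fold change of tumour cells against stroma in liver on the x axis and in peritoneum on the y axis, orange where the difference between sites was called (953 genes) and grey otherwise (13210). The line marks equal values, with Col28a1 and Ebf3 far below it and Oit3 and Gata4 above it.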

How the data were processed

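RNA-seq was done on 25 samples, of which the 16 sorted tumour cell and stromal libraries of 4 mice were used and the 8 from peritoneum are described. The values are raw read counts per gene as deposited by the authors, with no normalization. Libraries were made with a NuGEN mRNA-seq kit and read on a HiSeq 2500, and the study's methods name TopHat2 and mm9. The submitters' processing notes also list FastQC, Bowtie 0.12.2, mm8 and mm10, without a role. The counting tool, its annotation and its use of strand are not given in the sources used here, so reads of overlapping and antisense genes cannot be told apart. Of the count rows, 30 had no gene identifier and were kept under the symbol alone.

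Genes were kept by edgeR's filterByExpr with a minimum count of 10. A gene nearly absent from 1 fraction is kept only through the other, which largely sets its direction. Counts of members called are no evidence for the direction of such genes in any list. Counts were scaled by TMM and tested with the quasi-likelihood F-test of edgeR 4.0.16 in R 4.3.3, with the mouse as a block and Benjamini-Hochberg adjustment over all genes tested. Genes with an adjusted p-value under 0.05 and an absolute log2 fold change above 1 were called. The difference between sites was an interaction term over the 16 libraries with a block for each tumour. Tumour cells and stroma of a mouse came from the same animal and tumour, which is the source of the pairing. Deviations from the group means correlated between the libraries of a mouse at 0.293, 0.172, 0.239 and 0.0676. A gene without counts in a group was given a floor of 3 counts per library, and ratios with 1 to 3 counts have 95% intervals that cover counting error only. The steps were tested on simulated data.

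The groups, gene lists and pairs were chosen with earlier results of these data known. Named genes are the 10 largest changes in each direction among called genes with at least 10 CPM in the higher group and no overlap, the 2 most abundant members, the largest change and the called exceptions of each list, pairs with both genes called, genes the study assayed by RT-qPCR, and the 5 largest site differences in each direction. Some genes that this rule names are not reported here. The alternatives were a fit without the block, DESeq2 1.42.0, RLE factors, library size alone, other filters, p-values without adjustment, a joint fit of all 16 libraries, the omission of each mouse in turn and the omission of the tumour cell library of mouse 1.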

Additional observations from a re-analysis of the deposited data

Results flagged for a closer look

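The tumour cell library of mouse 1, which held the most host marker RNA of the 4, stood apart in many genes at once. In 403 groups of 4 values, 1 sample lay apart from the others by Dixon's test at the 95% level in 59, where chance gives about 1 in 20 for a single group. Genes of 1 library vary together, so these groups are not independent. In 34 genes it was the tumour cells of mouse 1 that had the highest value, and the share of macrophage, fibroblast and endothelial marker RNA was apart in the same library, at 4.02% of its level in the stroma of that mouse. Genes of leukocytes in this library, with CPM in brackets, were Ccr2 (9.45), Cd74 (88.3), Csf3r (5.05), Cx3cr1 (4.92), Cytip (6.92), H2-Eb1 (25.4), Itgax (8.99), Nos2 (0.923), Tnf (3.66), Vsir (12.7), Slc2a3 (2.12), Ctla4 (0.0308) and Kcna3 (0.0616). Granule genes of neutrophils were Ngp (25.8), S100a8 (18.9) and S100a9 (23.7), and mast cell genes were Kit (1.38) and Fcer1a (0.0923). Genes of connective tissue and perivascular cells were Nid1 (38.7), Pdgfra (10.9), Sfrp2 (15.9), Lifr (5.17), Ptx3 (4.49), Kcnj8 (0.893) and Gpc3 (2.22), and fat-related genes were Cd36 (10.8), Fabp4 (23.4) and Ucp1 (0.0616). Ahsg (0.185), Cldn3 (0.0616), Efna1 (136), Etv1 (1.20), Gata6 (110.0) and Psmb8 (2.31) were also apart. Of these, Cldn3, Ctla4, Fcer1a, Kcna3 and Ucp1 had 1 to 3 counts there and none in the other tumour cell libraries.

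The stroma of mouse 1 was apart and high for S100a8 at 1040.1 CPM against 55.3 to 59.4 CPM in the others, and for S100a9 at 1314 against 119.6 to 137 CPM. It was also high for Cd36 (111), Fabp4 (129), Etv1 (19.5), Cd47 (169), Fgb (0.0707) and Mmp8 (126), where Fgb had 2 counts, and low for Etv4 (16.9), Fn1 (12976) and Ucp1 (5.51). The stroma of mouse 2 was low for Foxa2 (2.39), Hnf4a (8.27), Rbp4 (24.6) and Cebpa (96.5), the first 3 of which were higher in tumour cells. The stroma of mouse 3 was low for Alox15 (33.4) and Car9 (5.33) and high for Csf1 (383), and that of mouse 4 was high for Cd3e (19.1) and Raet1e (0.331). Among the other tumour cell libraries, Pdgfa was high in mouse 2 (134), Ccnd1 was high (1636) and Ebf3 low (0.361) in mouse 3, and Car9 was low in mouse 4 (2.95).

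The difference between tumour cells and stroma was itself different between peritoneum and liver, by the test across all 16 libraries, for 46 of the 201 genes given values here. The values in brackets are log2 fold changes in peritoneum minus those in liver. Liver genes were Hnf4a (1.5), Foxa2 (1.30), Onecut2 (1.45), Gata4 (4.88), Gc (3.16), Trf (1.10), Akr1c19 (1.57) and Fgb (5.33). Among the rest, genes higher in tumour cells were Sall1 (1.81), Cadps (1.58), Dnajc22 (1.47), Glod5 (1.28), Nefl (1.22), Msln (1.17), Btc (1.10), Hmga2 (1.08) and Cdkn2a (1.10). Genes of vessels were Oit3 (4.94), F8 (5.18), Flt4 (1.88) and Notch1 (1.38), and genes of blood cells and interferon response or lipid uptake were Ngp (2.70), S100a8 (1.77), Cd36 (2.71), Plac8 (1.20), Il2rb (1.18), Oas1g (4.92) and Mmp8 (3.51). Genes of connective tissue were Col28a1 (-8.96), Fgf7 (-7.78), Osr2 (-7.12), Tspan11 (-6.69), Ebf3 (-6.44), Mmp3 (-5.21), Pdgfra (-3.21), Rgs5 (-2.70), Fzd1 (-2.24), Vcan (-1.59) and Fn1 (-1.26), all with a lower log2 fold change in peritoneum, as the others had, Ahsg (-4.63), Cd3e (-2.55), Ceacam1 (-1.56), Egfr (-1.56), Ereg (-1.53), Lamb1 (-1.08) and Tmem252 (-2.66).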

How the results depend on the processing

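The number of genes called between peritoneal tumour cells and stroma ranged from 5504 to 6905 over the alternatives, always within 1.5 times 6358, and no gene called in both an alternative and the original fit changed direction. Scaling moved the balance: with RLE factors 1968 genes were higher in tumour cells and 4224 in stroma, the median over all genes was -0.07 in place of 0.07 and 31.8% of calls were higher in tumour cells, against 37.3% originally and 41.3% with library size alone, where the median was 0.18. Without the filter on low counts the median was -0.15. Without the block for the pairing by mouse the count was 6355, and 990 for the difference between sites. Leaving out 1 mouse at a time gave 561 to 1108 genes that differed between sites, with 192 to 336 higher and 369 to 772 lower in peritoneum. At an unadjusted p-value under 0.05 the difference between sites was called for 1559 genes, 734 of them higher in peritoneum. Host marker RNA in the tumour cells of mice 1 to 4 was also taken in other ways as a percent of its level in stroma of the same mouse. With macrophage markers alone, which include Mrc1, it was 6.21%, 4.90%, 4.03% and 3.16%. As the median over genes of the ratio it was 3.94%, 0.76%, 0.97% and 0.64%. Mouse 1 was highest by both. With endothelial markers alone it was 30.1%, 47.5%, 21.0% and 57.7%, and mouse 1 was not highest. That list includes Cdh5, Flt1 and Flt4, which were not called between the fractions. For named genes only the calls between peritoneal tumour cells and peritoneal stroma were followed through the alternatives, not their site differences. Apart from Lif and Mif, which are described above, those calls changed for Oit3 in 6 alternatives, Ier3 in 4, and Calr and Spint1 in 3 each. For Car9, Ereg, F8, Fabp4 and Ngp they changed in 1 each. The cause was not tested.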
